A study of Mus musculus with 12 samples.

Results

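The 10 genes described here store iron, bring it into cells, recycle it from haem or send it out again: Ftl1, Fth1, Ncoa4, Trf, Tfrc, Slc11a2, Slc11a1, Hmox1, Slc40a1 and Cp. They were chosen by name, with earlier results of these data known. They are 10 of the 55281 genes counted by bulk RNA-seq in mouse gonadal white adipose tissue (GWAT). All 10 were among the 18427 genes with enough counts to be tested. The libraries came from 2 genotypes on 2 diets. HoipA-KO mice were Hoip fl/fl and carried AdipoQ.Cre, an adiponectin-driven Cre that deletes Hoip (Rnf31) in mature adipocytes, and the WT controls were Hoip fl/fl without Cre, so both genotypes bore the floxed allele. Male mice of 22 to 24 weeks had eaten a control diet with 14% fat (CD) or a high-fat diet with 60% fat (HFD) for 16 weeks, starting at 6 weeks of age. Each of the 4 groups had 3 libraries, and each library pooled RNA of 3 mice, so the spread between libraries is a spread between pools.

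Cells take up most of their iron as transferrin bound to its receptor, move it into the cytosol through divalent metal transporters and store what they do not use inside ferritin shells of light and heavy chains. Macrophages recycle iron on a large scale: they digest old red cells and dead cells, open the haem ring with haem oxygenase and return the iron to the blood through ferroportin. In adipose tissue macrophages surround dying adipocytes, and both cell types carry much of this machinery.

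Several of these mRNAs are known to be controlled by iron itself through the iron-responsive element, a hairpin whose loop binds the iron regulatory proteins when iron is scarce. In the 5′ UTR such a hairpin blocks translation, while in the 3′ UTR it shields the mRNA from decay. The sites are printed because they divide the members into mRNAs whose translation iron sets, which need not show in RNA levels, and Tfrc, whose mRNA level iron is known to set. Each line holds 30 bases of the GENCODE M21 transcript (GRCm38), 5′ to 3′, and the capitals mark the loop CAGTGN. The first 3 lie in 5′ UTRs, at chr7:45459778-45459807 on the minus strand (Ftl1), chr19:9982732-9982761 on the plus strand (Fth1) and chr1:45925464-45925493 on the minus strand (Slc40a1).
Ftl1: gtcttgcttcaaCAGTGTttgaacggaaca
Fth1: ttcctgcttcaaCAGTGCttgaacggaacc
Slc40a1: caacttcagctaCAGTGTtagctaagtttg

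The next 5 lie in 3′ UTRs. Those of Tfrc are on the plus strand at chr16:32631219-32631248, chr16:32631598-32631627, chr16:32631663-32631692 and chr16:32631710-32631739, and that of Slc11a2 is on the minus strand at chr15:100395152-100395181.
Tfrc, site 1: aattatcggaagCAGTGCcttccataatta
Tfrc, site 2: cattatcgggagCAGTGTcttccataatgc
Tfrc, site 3: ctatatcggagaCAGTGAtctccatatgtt
Tfrc, site 4: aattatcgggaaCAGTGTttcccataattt
Slc11a2: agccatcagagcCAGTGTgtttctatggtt

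The search took the sense strand of each transcript and asked for C, 5 further bases, CAGTGN and 5 bases that pair with the 5 before the loop, with G-T pairs allowed. Such a stem stood in transcripts of 294 of 21901 genes with protein-coding transcripts (1.34%) and in 4 of the 10 members, Ftl1, Fth1, Slc40a1 and Tfrc. The Slc11a2 hairpin, in 1 of its transcripts, had 4 of the 5 pairs. A looser search that took 4 or 5 pairs matched 10.7% of genes and 6 of the 10 members, with a match inside the coding sequence of Slc11a1 as the sixth. A match is a description of the letters, and binding was not measured here.

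The libraries held 30513500 to 60540260 estimated counts. Levels below are CPM, counts scaled to library size with TMM factors over all 12 libraries, and fold changes come from a fit over 11 of them. WT CD replicate 3 was left out of the fit, and its values are printed throughout. Its correlation with the other WT CD libraries was 0.785 and 0.793, against 0.971 to 0.993 between the libraries of each of the other groups. WT CD replicates 1 and 2, the controls kept in the fit, correlated at 0.907, also below the other groups. WT CD replicate 3 held testis RNA, with 7943 CPM over 6 markers, against 226.2 CPM in WT CD replicate 2 and at most 16.3 CPM in the others. WT CD replicate 2 and HoipA-KO HFD replicate 1 held RNA of the epididymis, with 14870 and 1310 CPM over 8 markers, against at most 101.8 CPM in the others. In HoipA-KO HFD replicate 1 this was nearly all Crisp1 (1307 CPM), with Adam7 at 2.097 CPM. In WT CD replicate 2 both were high (12430 and 2340 CPM). Lower levels of other markers stood in HoipA-KO HFD replicate 3 (Lcn8 at 28.93 CPM, Adam7 at 23.32 CPM) and HoipA-KO CD replicate 3 (Lcn5 at 64.57 CPM). Rnf31, the targeted gene, lay at 17.74 to 22.5 CPM in the 11 libraries and at 12.01 CPM in WT CD replicate 3. It did not pass the test in any comparison. Whole tissue contains many cells in which Cre is not active, and their part in the Rnf31 level was not tested. The defining genes of adipocytes were present, Adipoq among them at 203.2 to 3541 CPM.

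On CD, 7 of the 10 members differed between HoipA-KO and WT: 5 rose and 2 fell. Slc11a1, the iron pump of the phagosome, rose 35.4-fold and Hmox1, which degrades haem, rose 21.9-fold, while the ferritin chains and the exporter Slc40a1 rose 3.6-fold to 6-fold. Trf and Cp, the secreted proteins that carry and oxidise iron, fell. The background was high: 37.7% of all tested genes passed in this comparison (18.9% of all tested genes upward and 18.8% downward). The median log2 fold change was 1.49 over the members and -0.055 over all genes. In bulk tissue a change in the number of cells of a type and a change in RNA per cell cannot be told apart, and macrophage markers rose and adipocyte markers fell in the same comparison. On HFD, 3 members rose, Slc40a1, Hmox1 and Ftl1, none fell, and 11.8% of all genes passed (4.2% upward, 7.62% downward). In WT mice, HFD raised Slc11a1 and Hmox1 and lowered Cp, against 14.8% of all genes (9.35% upward, 5.47% downward). Scaling by library size alone moved these splits, to 1279 genes higher and 1133 lower on HFD, against 774 and 1405, and to 2108 higher and 677 lower with HFD in WT, against 1723 and 1008. No member passed between the diets in HoipA-KO, where 0% of genes did. With WT CD replicate 3 included, 6 members rose and 1 fell on CD (34.7% of all genes passed), 1 rose on HFD (2.78%), 2 rose with HFD in WT (15%) and none passed between the diets in HoipA-KO (0%).

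**Figure D1:**
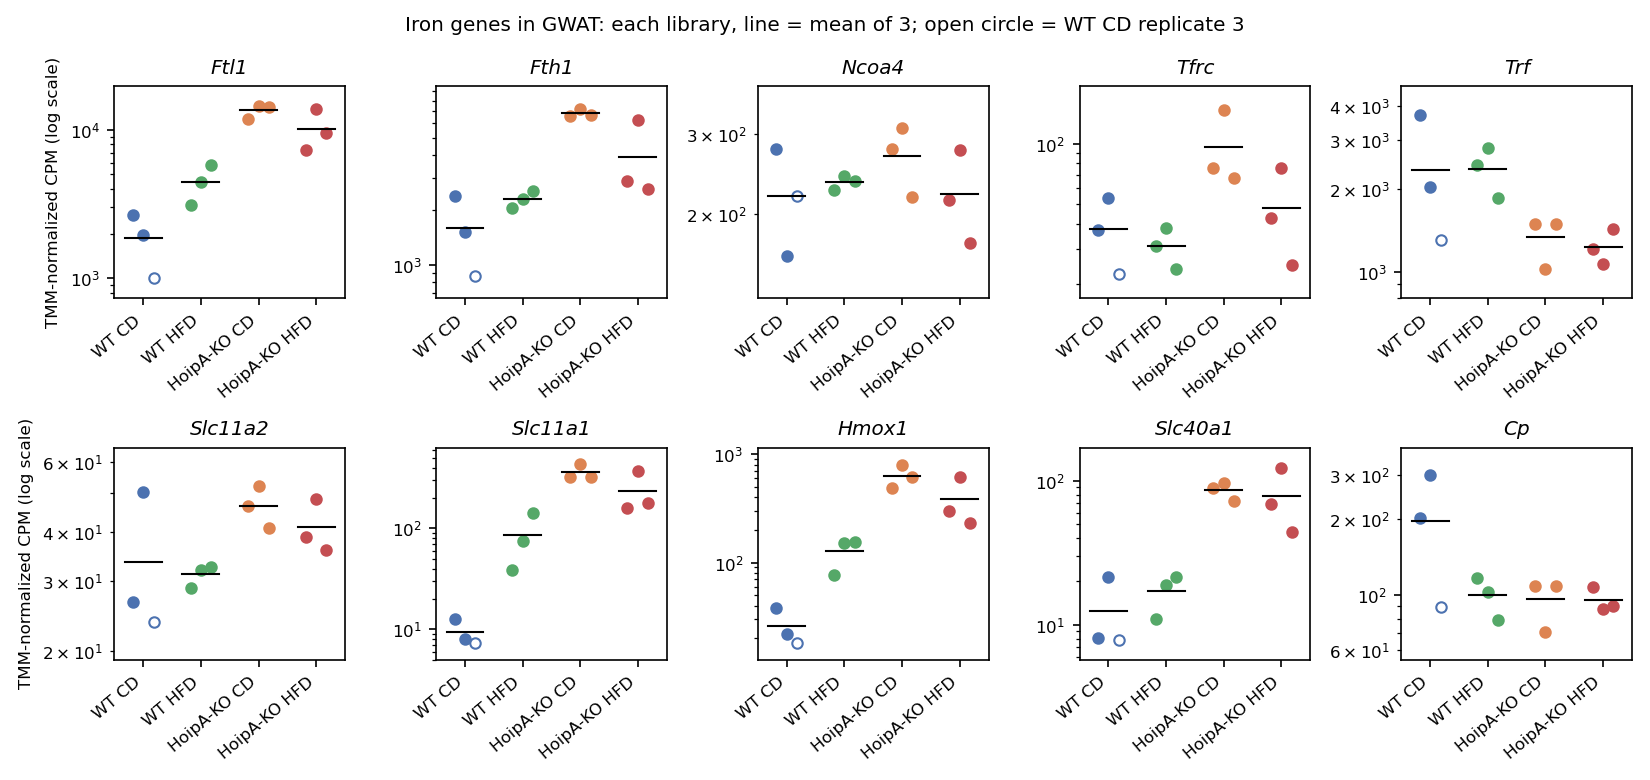
TMM-normalized CPM (log axes) of the 10 genes in each of the 12 libraries by group, with a line at the mean of 3 and an open circle for WT CD replicate 3. Slc11a1 and Hmox1 climb from WT CD through WT HFD to both HoipA-KO groups, whereas Trf is lowest in the HoipA-KO groups and Ncoa4 is level.

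Ftl1 encodes the light chain of ferritin. In replicate order, as in all such lists below, it measured 2650, 1965 and 1002 CPM in WT CD, and 3092, 4418 and 5798 CPM in WT HFD. In HoipA-KO it measured 11860, 14380 and 14230 CPM on CD and 7333, 13730 and 9497 CPM on HFD. Every HoipA-KO library lay above every WT library, on both diets. The log2 fold change of HoipA-KO against WT was 2.58 ± 0.39 (SE) on CD and passed the quasi-likelihood F test of edgeR, adjusted after Benjamini and Hochberg (adjusted p = 0.00117). On HFD it was 1.22 ± 0.32 (edgeR, adjusted p = 0.0395), but the call was lost over all 12 libraries (edgeR, adjusted p = 0.135) and in 7 of the 11 fits that left out 1 library, 5 of them with a HoipA-KO library left out and 2 with WT HFD replicate 1 or 2 left out. Between the diets Ftl1 did not pass in WT by edgeR (0.95 ± 0.36, adjusted p = 0.105) and passed by the Wald test of DESeq2 (0.90 ± 0.32, adjusted p = 0.0248), and the WT HFD values were all above those of WT CD.

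Fth1, the heavy chain that oxidises iron on its way into the shell, measured 2380, 1505 and 868.1 CPM in WT CD and 2056, 2290 and 2555 CPM in WT HFD. It measured 6607, 7213 and 6628 CPM in HoipA-KO CD, the tightest group relative to its mean, and 2878, 6224 and 2606 CPM in HoipA-KO HFD. On CD the groups were far apart and the log2 fold change was 1.85 ± 0.41 (edgeR, adjusted p = 0.00727). On HFD the lowest HoipA-KO library lay just above the highest WT library and the difference, 0.79 ± 0.34, did not pass (edgeR, adjusted p = 0.151). Within HoipA-KO, the log2 change of Fth1 on HFD was -0.81 ± 0.34, and although the HFD values were all below the CD values it did not pass the test (edgeR, adjusted p = 1).

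Both chains together made up 0.207 to 0.437% of all counts in WT CD, 0.508 to 0.83% in WT HFD, 1.86 to 2.12% in HoipA-KO CD and 1.13 to 1.89% in HoipA-KO HFD. Ferritin pseudogenes took few counts: those of Ftl1 held 0.521 to 0.64% as many as the gene and those of Fth1 at most 0.0131%. Because they share sequence with the genes, this split is uncertain.

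The ratio of light to heavy chain was compared as well. Ftl1 counts per Fth1 count, a ratio inside each library that is not corrected for length, were 1.11, 1.31 and 1.15 in WT CD and 1.5, 1.93 and 2.27 in WT HFD. They were 1.79, 1.99 and 2.15 in HoipA-KO CD and 2.55, 2.21 and 3.64 in HoipA-KO HFD. On CD every HoipA-KO library had the higher ratio, by 1.66-fold in the mean, and the exact two-sided permutation test over 3 against 3 libraries gave p = 0.1, the smallest it can give. On HFD the ranges overlapped and the ratio was 1.46-fold higher (exact two-sided permutation test, p = 0.2).

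**Figure D2:**
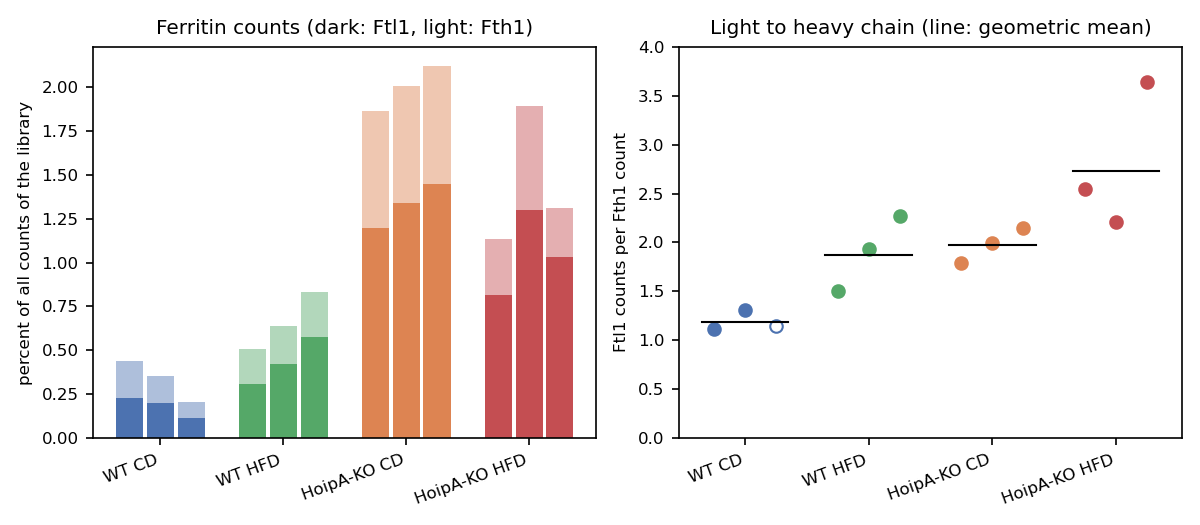
Left, counts of Ftl1 (dark) and Fth1 (light) as percent of all counts in each library, stacked, in replicate order; right, Ftl1 counts per Fth1 count with a line at the geometric mean. Ferritin exceeds 1% of counts in all HoipA-KO libraries and in no WT library, and the ratio runs from 1.11 in a WT CD library to 3.64 in a HoipA-KO HFD library.

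Ncoa4, the receptor that delivers ferritin to lysosomes so that its iron is released, stayed within a narrow range. It measured 277.6, 162 and 219.6 CPM in WT CD, 225.8, 242.7 and 237.1 CPM in WT HFD, 278.7, 308.6 and 218.4 CPM in HoipA-KO CD and 215.1, 276.2 and 173.4 CPM in HoipA-KO HFD. The groups overlapped on both diets. The log2 difference of HoipA-KO and WT was 0.33 ± 0.27 on CD (edgeR, adjusted p = 0.369) and -0.067 ± 0.24 on HFD (edgeR, adjusted p = 0.867).

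Trf, the transferrin that carries iron in blood and is also made in adipose tissue, went the other way. It measured 3696, 2033 and 1301 CPM in WT CD and 2447, 2806 and 1859 CPM in WT HFD, against 1485, 1022 and 1489 CPM in HoipA-KO CD and 1207, 1066 and 1424 CPM in HoipA-KO HFD. On HFD the groups did not overlap, and on CD only WT CD replicate 3 fell among the HoipA-KO values. On CD Trf fell by 1.07 ± 0.30 on the log2 scale (edgeR, adjusted p = 0.0191). The call was lost over all 12 libraries (-0.84, edgeR adjusted p = 0.09), without WT CD replicate 1 (-0.59, edgeR adjusted p = 0.15) and without HoipA-KO CD replicate 2 (-0.93, edgeR adjusted p = 0.0649). On HFD the log2 difference was -0.93 ± 0.27 and did not pass (edgeR, adjusted p = 0.0542), while it passed without the libraries with epididymal RNA (-0.89 ± 0.25, edgeR adjusted p = 0.0392), an alternative chosen after seeing the data, and with the Wald test of DESeq2 (-0.91 ± 0.26, adjusted p = 0.00387).

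Tfrc, the transferrin receptor, measured 37.32, 53.6 and 22.44 CPM in WT CD, 31.11, 38.22 and 23.82 CPM in WT HFD, 75.93, 146.4 and 67.21 CPM in HoipA-KO CD and 42.73, 75.61 and 25.04 CPM in HoipA-KO HFD. On CD all 3 HoipA-KO libraries lay above all WT libraries, with replicate 2 far above the others. The log2 difference of 1.13 ± 0.49 did not pass over 11 libraries (edgeR, adjusted p = 0.0971) and passed over 12 (1.33 ± 0.45, edgeR adjusted p = 0.0448). The receptor is known to be high in dividing cells, and 6 markers of proliferation summed to 19.85, 19.98 and 250.4 CPM in WT CD and 166.8 to 313.3 CPM in HoipA-KO CD. Of these 6 markers all rose on CD over 11 libraries and 1 over 12, and their part in the Tfrc difference was not tested. On HFD the Tfrc values overlapped (0.64 ± 0.43, edgeR adjusted p = 0.326).

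Slc11a2, the transporter that brings iron from the endosome into the cytosol, measured 26.63, 50.34 and 23.66 CPM in WT CD and 28.82, 32.08 and 32.62 CPM in WT HFD. In HoipA-KO it measured 46.42, 52.27 and 40.97 CPM on CD and 38.69, 48.35 and 35.96 CPM on HFD. The groups overlapped on CD through WT CD replicate 2, the library with most epididymal RNA, and were separate on HFD. The log2 difference was 0.31 ± 0.26 on CD (edgeR, adjusted p = 0.368) and 0.41 ± 0.23 on HFD (edgeR, adjusted p = 0.243). The CD value was 0.85 without WT CD replicate 2 and -0.097 without WT CD replicate 1, each with only 1 WT CD library left. With WT CD replicates 1 and 3 as the controls it was 0.86 ± 0.18 (edgeR, adjusted p = 0.00772).

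Slc11a1, which pumps metal ions across the phagosome membrane and is known from macrophages and neutrophils, showed the largest fold change of the 10 members. It measured 12.74, 8.094 and 7.312 CPM in WT CD, 38.81, 74.85 and 142.8 CPM in WT HFD, 320.4, 429.8 and 324.4 CPM in HoipA-KO CD and 159.9, 368.3 and 179.1 CPM in HoipA-KO HFD. WT CD, WT HFD and HoipA-KO CD were separate from one another, while the 2 HoipA-KO groups overlapped. On CD the log2 fold change was 5.14 ± 0.67 (edgeR, adjusted p = 0.000662) and it held in all 11 fits that left out 1 library (4.86 to 5.48). On HFD it was 1.49 ± 0.48 and did not pass (edgeR, adjusted p = 0.0696), but it passed without WT HFD replicate 3 (2.09, edgeR adjusted p = 0.023), without the libraries with epididymal RNA (1.71, edgeR adjusted p = 0.0468), with library size only (1.52, edgeR adjusted p = 0.0477) and with DESeq2 (1.51, adjusted p = 0.00766). In WT mice HFD raised Slc11a1 by 3.04 ± 0.60 (edgeR, adjusted p = 0.0121), a call lost without WT CD replicate 2 (2.76, edgeR adjusted p = 0.0758).

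Hmox1, the inducible haem oxygenase that frees iron from haem, followed a like course. It measured 37.69, 21.82 and 18.27 CPM in WT CD, 76.79, 150.5 and 153.3 CPM in WT HFD, 488.1, 794.6 and 620.9 CPM in HoipA-KO CD and 299.9, 611.9 and 233.9 CPM in HoipA-KO HFD. Every WT HFD library was above WT CD and every HoipA-KO library above every WT library. The log2 fold change of HoipA-KO against WT was 4.46 ± 0.57 on CD (edgeR, adjusted p = 0.000625), where it held without any 1 library. It was 1.61 ± 0.42 on HFD (edgeR, adjusted p = 0.0401), where it was lost over 12 libraries (edgeR, adjusted p = 0.0705) and in 6 of the 11 fits without 1 library. In WT mice HFD raised Hmox1 by 2.10 ± 0.50 (edgeR, adjusted p = 0.0252), and the call was lost without WT CD replicate 2 (1.76, edgeR adjusted p = 0.135), WT HFD replicate 2 (1.96, edgeR adjusted p = 0.0721) or WT HFD replicate 3 (1.85, edgeR adjusted p = 0.0809).

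Slc40a1 encodes ferroportin, the iron exporter. It measured 8.064, 21.52 and 7.835 CPM in WT CD, 10.92, 18.85 and 21.56 CPM in WT HFD, 89.19, 95.4 and 72.68 CPM in HoipA-KO CD and 69.1, 123.1 and 43.83 CPM in HoipA-KO HFD. All 6 HoipA-KO libraries lay above all 6 WT libraries. The log2 fold change was 2.57 ± 0.55 on CD (edgeR, adjusted p = 0.00616) and 2.22 ± 0.46 on HFD (edgeR, adjusted p = 0.021), and Slc40a1 was the 1 member called on both diets with 12 libraries as well (edgeR, adjusted p = 0.0429 on HFD). The HFD call was lost without WT HFD replicate 1, WT HFD replicate 2 or HoipA-KO HFD replicate 2 (log2 fold changes 1.72 to 2.29, highest edgeR adjusted p = 0.0846). The diets did not separate it in either genotype, with log2 differences of 0.21 ± 0.50 in WT (edgeR, adjusted p = 0.809) and -0.13 ± 0.44 in HoipA-KO (edgeR, adjusted p = 1).

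Cp, or ceruloplasmin, is the copper enzyme that oxidises exported iron so that transferrin can bind it. It measured 202.1, 299.3 and 88.82 CPM in WT CD, 116.4, 102.2 and 79.22 CPM in WT HFD, 108.3, 70.69 and 107.7 CPM in HoipA-KO CD and 107.3, 87.68 and 89.81 CPM in HoipA-KO HFD. WT CD replicates 1 and 2 stood above the other 10 libraries and WT CD replicate 3 lay among them. Cp fell by 1.36 ± 0.24 in HoipA-KO on CD (edgeR, adjusted p = 0.00246) and by 1.33 ± 0.24 with HFD in WT (edgeR, adjusted p = 0.00917). With WT CD replicates 1 and 3 as the controls these differences were -0.63 (edgeR, adjusted p = 0.153) and -0.57 (edgeR, adjusted p = 0.246), and without WT CD replicate 2 the diet call was also lost (-1.01, edgeR adjusted p = 0.0542). On HFD the genotypes overlapped (-0.049 ± 0.22, edgeR adjusted p = 0.893). Of the WT CD libraries that set both results, replicate 2 held epididymal RNA, whose part was not tested.

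**Figure D3:**
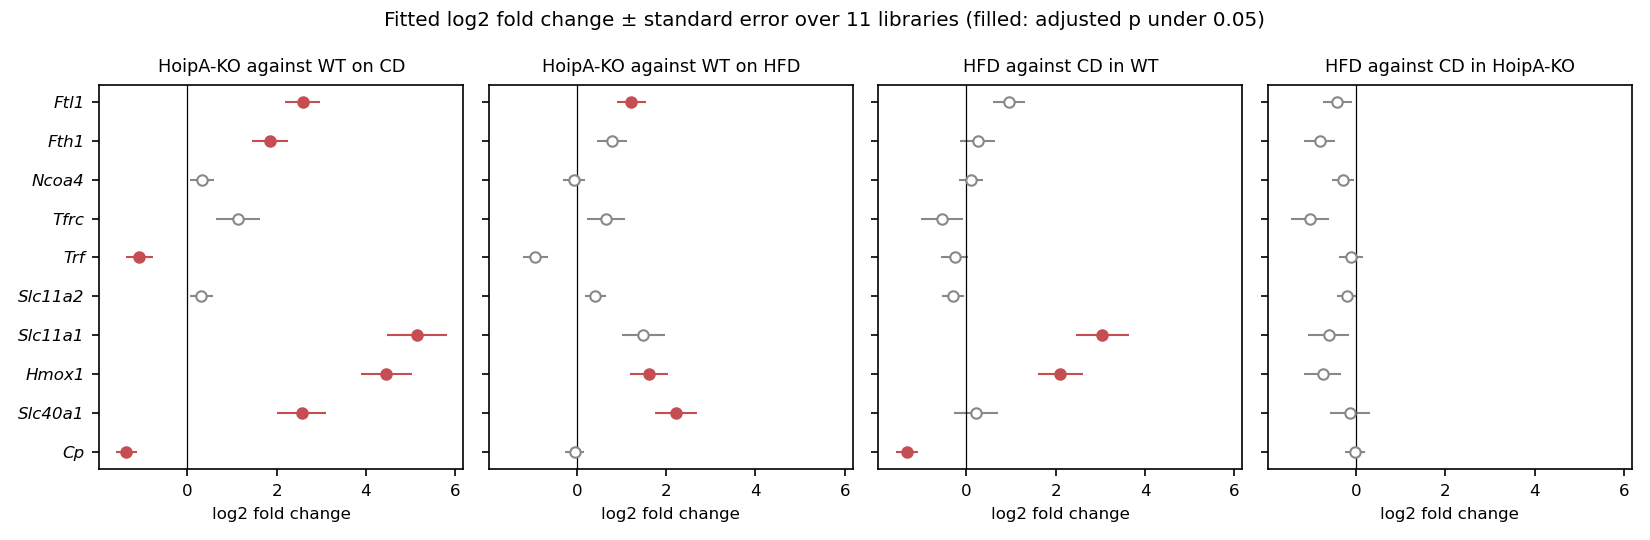
Fitted log2 fold change ± SE of the 10 genes in 4 comparisons over 11 libraries, filled where the adjusted p is under 0.05. The points of Slc11a1 (5.14) and Hmox1 (4.46) lie farthest to the right on CD, 3 points are filled on HFD and none between the diets in HoipA-KO.

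The difference between genotypes itself differed between the diets for Hmox1 and Slc11a1. The interaction, the log2 fold change of HoipA-KO against WT on HFD less that on CD, was -2.84 ± 0.65 for Hmox1 (edgeR, adjusted p = 0.0448) and -3.66 ± 0.75 for Slc11a1 (edgeR, adjusted p = 0.0329), against 3.91% of all genes called (0.331% upward, 3.58% downward). Both passed over 12 libraries too (edgeR, adjusted p = 0.0286 and 0.0174), where 2.78% of genes did. Each was lost in 8 of the 11 fits without 1 library, with a highest edgeR adjusted p of 0.141 for Hmox1 and 0.115 for Slc11a1. The remaining members did not pass, Ftl1 at -1.36 ± 0.48 (edgeR, adjusted p = 0.134) and Cp at 1.32 ± 0.33 (edgeR, adjusted p = 0.0569) among them. Ftl1 (-1.30, adjusted p = 0.0242) and Cp (adjusted p = 0.00341) passed with DESeq2, in the same directions. Fth1 passed without HoipA-KO HFD replicate 2 (-1.59, edgeR adjusted p = 0.048).

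Between the diets in HoipA-KO edgeR called 0 of 18427 genes, although 415 (2.25%) had an unadjusted p under 0.05 and DESeq2 called 7 higher and 0 lower. The members' log2 differences ran from -1.03 ± 0.43 for Tfrc to -0.019 ± 0.22 for Cp, and all 10 were negative. With edgeR's adjusted p at 1 for each, no diet difference was detected, which does not show that there was none.

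Markers of macrophages and adipocytes moved with these genes. The 10 macrophage markers summed to 463.5 to 794.1 CPM in WT CD, 2089 to 6203 CPM in WT HFD, 9878 to 12710 CPM in HoipA-KO CD and 7860 to 11840 CPM in HoipA-KO HFD, with Lyz2 the highest in CPM. Of these markers 9 rose in HoipA-KO on CD, 5 on HFD and 9 with HFD in WT, and over 12 libraries 9, 0 and 9 did. The 10 adipocyte markers summed to 8520 to 30230 CPM in WT CD, 12600 to 19030 CPM in WT HFD, 3077 to 4555 CPM in HoipA-KO CD and 2351 to 4223 CPM in HoipA-KO HFD, and 9 of them fell on CD and all 10 on HFD (8 and 8 over 12 libraries). Their part in the members' values was not tested.

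Set against the summed macrophage markers of the same library, the members no longer shared a course. Slc11a1 per 1000 CPM of macrophage markers was 14.1 to 16 in WT CD, 18.6 to 23 in WT HFD, 31 to 33.8 in HoipA-KO CD and 20.3 to 31.1 in HoipA-KO HFD. Hmox1 was 38.1 to 47.5 in WT CD, 24.7 to 39.6 in WT HFD, 49.4 to 62.5 in HoipA-KO CD and 26.5 to 51.7 in HoipA-KO HFD. On this scale the HoipA-KO CD libraries stayed above all WT libraries for both genes, by far less than in CPM. Ftl1 was highest in WT CD, at 2160 to 3430, and lay at 1130 to 1360 in HoipA-KO CD, 935 to 1480 in WT HFD and 933 to 1160 in HoipA-KO HFD, which overlapped. Fth1 was at 1870 to 3000 in WT CD, 568 to 669 in HoipA-KO CD, 412 to 984 in WT HFD and 295 to 526 in HoipA-KO HFD. Slc40a1 lay at 10.2 to 37.5 in WT CD and 3.48 to 5.23 in WT HFD, against 6.93 to 9.03 in HoipA-KO CD and 4.97 to 10.4 in HoipA-KO HFD. These ratios depend on the markers summed. On CD the 10 markers rose from 1.64-fold (Mertk, not called) to 58-fold (Cd68), against 35.4-fold for Slc11a1 and 21.9-fold for Hmox1. Slc11a1 rose less than Cd68 and more than every other marker, with Itgam (35.1-fold) nearest to it. Hmox1 rose less than Cd68, Itgam, Adgre1 (30.3-fold) and Lyz2 (23.1-fold), and more than the remaining markers, of which Fcgr1 (13.5-fold) was the highest. No test was made on the ratios.

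The secreted members were set against the summed adipocyte markers of the same library. Trf per 1000 CPM of adipocyte markers was 122 to 161 in WT CD, 129 to 175 in WT HFD, 327 to 362 in HoipA-KO CD and 286 to 454 in HoipA-KO HFD. In CPM Trf was lower in HoipA-KO, and on this scale it was higher in every HoipA-KO library. Cp was 6.12 to 6.36 in WT HFD and 25.3 to 37.3 in HoipA-KO HFD. On CD its ranges overlapped, with WT CD at 6.68 to 23.7 and HoipA-KO CD at 23 to 26.4. These ratios also depend on the markers, whose fold changes on CD ran from 0.0113 (Cfd) to 0.692 (Lep, not called). The fold change of Trf was 0.475 and that of Cp 0.388, close to the 0.377 of the marker Pparg.

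**Figure D4:**
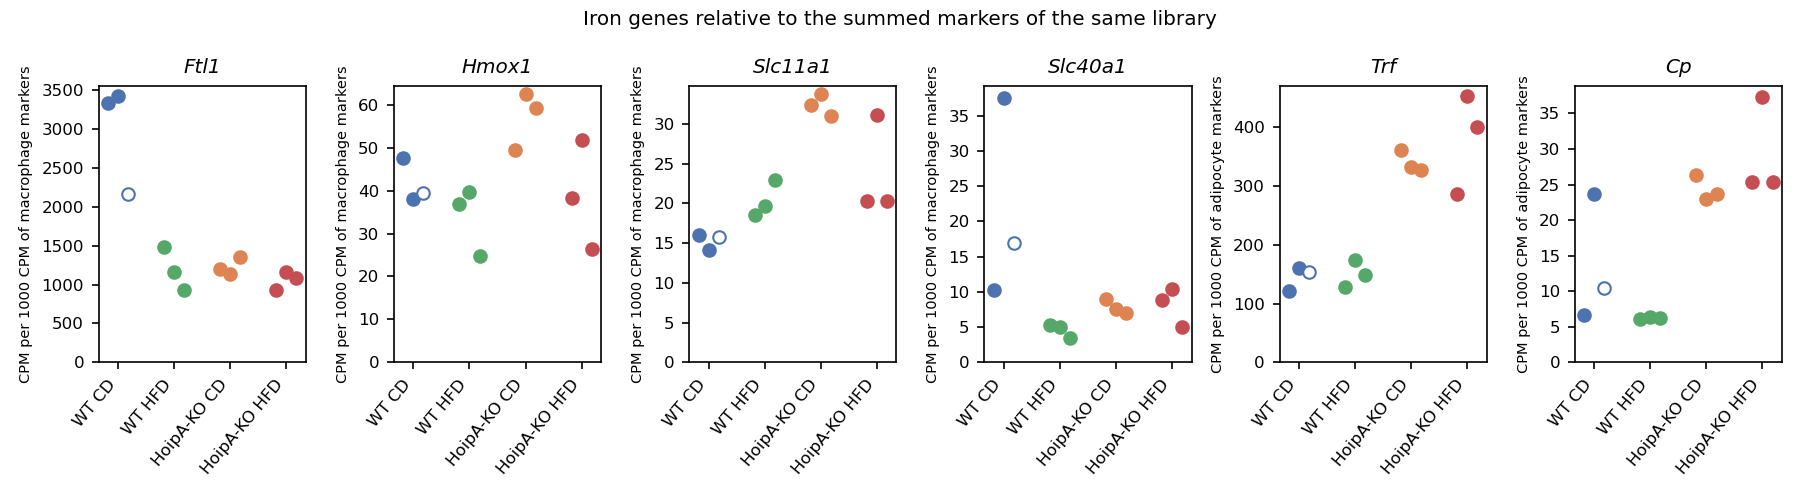
CPM of 6 genes per 1000 CPM of the summed macrophage markers (Ftl1, Hmox1, Slc11a1, Slc40a1) or adipocyte markers (Trf, Cp) of the same library, linear axes, open circle for WT CD replicate 3. Slc11a1 stays highest in HoipA-KO CD (31 to 33.8), Ftl1 is highest in WT CD (2160 to 3430) and Trf is higher in every HoipA-KO library than in every WT library.

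The other genes of iron handling were read by fixed lists, each set against the same background: 18.9% of all genes rose and 18.8% fell on CD, and 4.2% rose and 7.62% fell on HFD. Of 14 tested genes of iron uptake and reduction, 3 rose and 2 fell on CD, a share near that of all genes, and 3 fell on HFD (1 over 12 libraries). Lrp1, an endocytic receptor that also takes up haem bound to haemopexin, had the highest CPM of the list and rose on CD (2.10 ± 0.39, edgeR adjusted p = 0.00312). Picalm, an adaptor of clathrin-mediated endocytosis, did not pass (0.46 ± 0.27, edgeR adjusted p = 0.198). Cd163, the macrophage receptor for haemoglobin bound to haptoglobin, fell on both diets, by 2.37 ± 0.21 on CD (edgeR, adjusted p = 0.000452) and 1.82 ± 0.20 on HFD (edgeR, adjusted p = 0.00723). This was against the direction of the macrophage marker sum. It measured 28.09 to 49.06 CPM in WT CD, 41.83 to 56.21 CPM in WT HFD, 6.88 to 7.713 CPM in HoipA-KO CD and 13.21 to 14.64 CPM in HoipA-KO HFD. Steap2, a metalloreductase, fell with HFD in WT (by 1.49 ± 0.37, edgeR adjusted p = 0.0298), but its call was lost in 4 of the 11 fits without 1 library, and without WT CD replicate 1 its log2 difference was -0.59 (edgeR, adjusted p = 0.173).

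Of 11 genes of haem scavenging, breakdown and transport, 7 rose and 1 fell on CD, where 18.9% of all genes rose and the median of the list was 1.23 on the log2 scale. On HFD 2 of them rose, and 0 over 12 libraries by edgeR. Blvrb, a biliverdin reductase that takes the product of haem oxygenase a step further, rose on CD (2.51 ± 0.41, edgeR adjusted p = 0.00175) and on HFD (1.27 ± 0.34, edgeR adjusted p = 0.0414). Its HFD call was lost over 12 libraries (edgeR, adjusted p = 0.0929) and in 7 of the 11 fits without 1 library, falling to 0.75 without HoipA-KO HFD replicate 2 (edgeR, adjusted p = 0.111). Slc48a1, which moves haem out of the phagolysosome, rose on CD (1.23 ± 0.24, edgeR adjusted p = 0.0042) and was at -0.076 ± 0.21 on HFD (edgeR, adjusted p = 0.822). Haptoglobin, Hp, had the highest CPM of the list and did not pass on either diet (-0.46 ± 0.71, edgeR adjusted p = 0.636 on CD and -1.32 ± 0.65, edgeR adjusted p = 0.195 on HFD). Hpx, the haem carrier haemopexin, rose with HFD in WT from 0.2141 to 0.268 CPM to 1.612 to 3.453 CPM (edgeR, adjusted p = 0.0405), a call lost in 8 of the 11 fits without 1 library (edgeR, highest adjusted p = 0.171).

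Of 9 genes of haem synthesis, 3 fell on CD and 1 on HFD (2 and 0 over 12 libraries) and none rose, where 18.8% and 7.62% of all genes fell. Alad, the second enzyme of the path, fell by 2.47 ± 0.33 on CD (edgeR, adjusted p = 0.000723) and by 2.17 ± 0.33 with HFD in WT (edgeR, adjusted p = 0.00638). It measured 43.89 to 177.6 CPM in WT CD and 16.04 to 32.63 CPM in the other 9 libraries. Uros fell by 0.87 ± 0.16 on HFD (edgeR, adjusted p = 0.0141), a call lost over 12 libraries (edgeR, adjusted p = 0.0625). The rate-limiting Alas1 and the last enzyme, Fech, did not pass on CD (0.50 ± 0.41, edgeR adjusted p = 0.363 and -0.34 ± 0.17, edgeR adjusted p = 0.129). Erythroid markers, whose cells make haem, summed to 536.2 to 2358 CPM in WT CD and 641.6 to 764.9 CPM in HoipA-KO CD, 5 of 7 fell on CD (1 of 7 over 12 libraries), and their part was not tested.

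Of 12 genes of mitochondrial iron and iron-sulfur clusters, 5 fell and 1 rose on CD, and 4 fell on HFD, against 18.8% and 7.62% of all genes that fell. Over 12 libraries 3 fell on CD and none on HFD. Cisd1, an iron-sulfur protein of the outer mitochondrial membrane, fell by 1.71 ± 0.17 on CD (edgeR, adjusted p = 0.000452) and by 1.09 ± 0.16 on HFD (edgeR, adjusted p = 0.00871). The cluster assembly proteins Iscu and Isca1 fell on both diets, by 0.70 to 0.92 on CD (edgeR, highest adjusted p = 0.0246) and by 0.50 to 0.74 on HFD (edgeR, highest adjusted p = 0.045). Over 12 libraries Iscu did not pass on CD (edgeR, adjusted p = 0.0849), and on HFD both calls were lost in 6 of the 11 fits without 1 library. Slc25a37, the mitochondrial iron importer, was the 1 gene of this list that rose on CD, by 0.83 ± 0.12 (edgeR, adjusted p = 0.000996), and it rose with HFD in WT by 0.78 ± 0.12 (edgeR, adjusted p = 0.00658), but neither call held over 12 libraries (edgeR, adjusted p = 0.0701 and 0.114).

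Among 13 tested genes of iron sensing and the hepcidin axis, 1 rose and 5 fell on CD and 5 fell on HFD, where 7.62% of all genes fell. Over 12 libraries 1 rose and 4 fell on CD and none passed on HFD. The RNA-binding iron chaperones Pcbp1 and Pcbp2 had the highest CPM of the list. Pcbp1 was at 0.46 ± 0.14 on CD (edgeR, adjusted p = 0.0292), a call lost in 6 of the 11 fits without 1 library (edgeR, highest adjusted p = 0.109), while Pcbp2 did not pass (0.33 ± 0.15, edgeR adjusted p = 0.113). Hjv, a co-receptor upstream of hepcidin, had the largest fold change on CD (-2.85 ± 0.90, edgeR adjusted p = 0.032) at levels of only 0.2436 to 5.113 CPM in WT CD and 0.0601 to 0.1228 CPM in HoipA-KO CD. Without WT CD replicate 2 it was at -1.46 (edgeR, adjusted p = 0.312), and the call was also lost without HoipA-KO CD replicate 1 or 2. Hephl1, a ferroxidase akin to Cp, fell by 1.92 ± 0.45 on HFD (edgeR, adjusted p = 0.0295), a call lost over 12 libraries (edgeR, adjusted p = 0.0705). Aco1, an iron regulatory protein known to bind such hairpins, fell with HFD in WT by 0.82 ± 0.13 (edgeR, adjusted p = 0.00667). It also fell in HoipA-KO by 1.21 ± 0.13 on CD (edgeR, adjusted p = 0.000452) and by 0.52 ± 0.12 on HFD (edgeR, adjusted p = 0.0255). Over 12 libraries Aco1 passed in none of these comparisons (edgeR, adjusted p = 0.065 to 0.386). Ireb2, the other such protein, named beside Aco1 after its values were seen, did not pass on either diet (edgeR, adjusted p = 0.431 on CD and 0.264 on HFD). Hamp, the hepcidin gene, was at 0.4316 CPM or less in every library and was not tested.

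**Figure D5:**
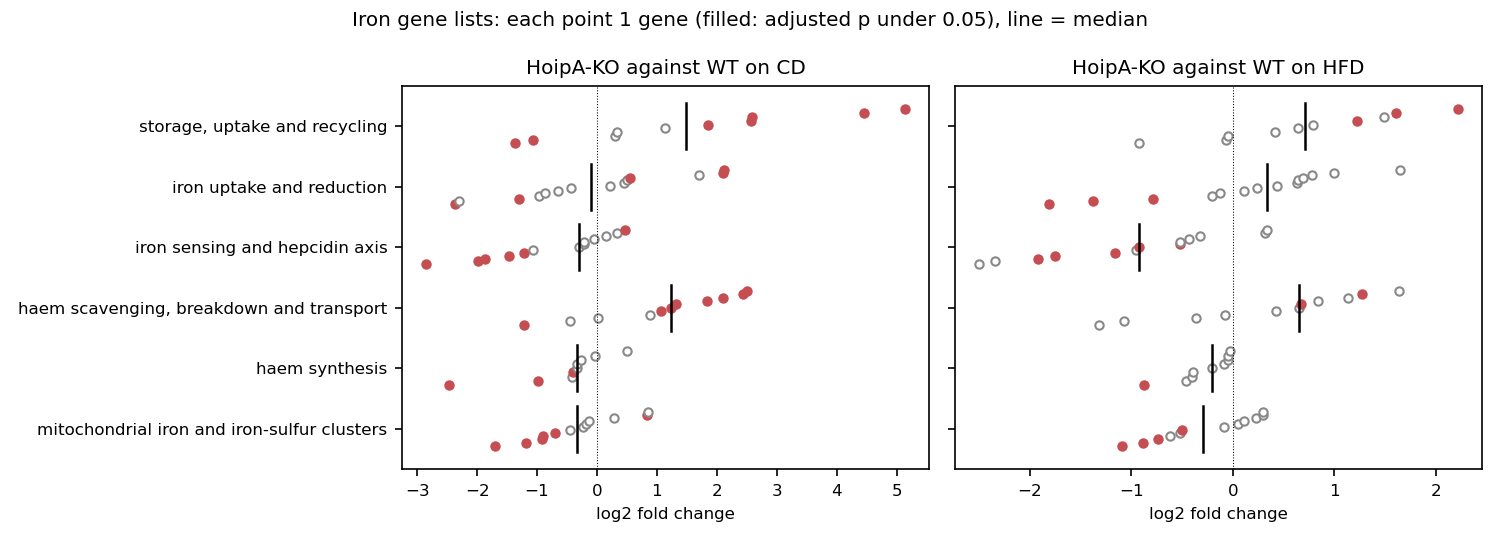
Log2 fold change of HoipA-KO against WT on each diet for the 10 genes and 5 further lists of iron genes, 1 point a gene, filled where the adjusted p is under 0.05, with a line at each median. The medians of the first list (1.49 on CD) and of haem breakdown (1.23 on CD) lie to the right of 0, and the filled points of haem synthesis and all but 1 of those of the mitochondrial list lie to the left.

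The genes most like each member in level over the 12 libraries were taken as those with the highest Pearson r of log2(CPM + 1) among 10348 genes with a mean of at least 10 CPM. Libraries of a group share genotype, diet and cell makeup, so the r of deviations from group means is given beside it as a description. These deviations include all WT CD libraries, which correlated at only 0.785 to 0.907 with one another. How far WT CD set the r within groups was not tested, and the genes were picked by r in the same libraries. For Slc11a1 these were Gpr137b-ps, Hk3 and Lyz2 (r = 0.998 each, 0.967 to 0.973 within groups), and for Hmox1 they were S100a4, Ncf1 and Alox5ap (r = 0.991 to 0.992, 0.874 to 0.887 within groups). Lyz2 is a macrophage marker and Hk3, Ncf1 and Alox5ap are known from myeloid cells. For Tfrc they were Gsr, Gclm and Gclc (r = 0.919 to 0.963, 0.912 to 0.936 within groups), which reduce or make glutathione. For Ftl1 they were Atp6v0c, a subunit of the lysosomal proton pump, the pseudogene Ftl1-ps1 and Rnh1 (r = 0.997 each, 0.978 to 0.984 within groups), and for Fth1 they were Esd, Zdhhc18 and Procr (r = 0.985 to 0.989, 0.928 to 0.959 within groups).

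Slc40a1 was most like Gdf15, a stress-induced hormone, Pstpip1 and Ado (r = 0.968 to 0.985, 0.871 to 0.948 within groups), and Slc11a2 was most like Pctp, Abr and Aig1 (r = 0.964 to 0.972, 0.955 to 0.976 within groups). For Trf these genes were Mtg1, Gnb5 and Ech1 (r = 0.983 to 0.986, 0.964 to 0.975 within groups) and for Cp they were Cox6c, Vmac and Ngrn (r = 0.962 to 0.976, 0.953 to 0.976 within groups). Ncoa4 had the weakest likenesses, to Exoc2, Osbpl9 and Dctn4 (r = 0.892 to 0.91, 0.89 to 0.931 within groups).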

How the data were processed

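Bulk RNA-seq of polyA RNA from GWAT was analysed in 12 libraries. The authors trimmed reads with Trim Galore 0.6.7, aligned them with STAR 2.7.10a and quantified genes with Salmon 1.5.2, per the submitters' processing notes. They deposited estimated counts per gene, without normalization, for all genes and for protein-coding genes. The notes name GRCm38 and the methods a human assembly. The gene identifiers are those of mouse, and 51948 of 55281 (94%) were in GENCODE M21 (GRCm38), from which the positions and sequences come. The deposited DESeq2 comparisons, which hold the authors' fold changes, p-values and CPM for 11 libraries, were not used beyond noting that they leave out WT CD replicate 3. Every column of the count tables had a sample.

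Estimated counts of all genes were rounded, filtered with filterByExpr, scaled by TMM and fitted in 1 model of the 4 groups without a block (R 4.3.3, edgeR 4.0.16, limma 3.58.1). Contrasts were tested by quasi-likelihood, and p-values were adjusted after Benjamini and Hochberg over 18427 genes with a threshold of 0.05. Log2 fold changes use a prior count of 0.125 and their SE is the fold change divided by the root of F. The biological coefficient of variation was 0.394 over 11 libraries and 0.514 over 12. The script was tested on simulated data with less spread between libraries and far fewer changed genes than here. That test checks the code and not the error rate in these data. The ferritin ratio was compared by an exact permutation test. Totals limit the precision of low genes: 3 counts, taken as the floor of a library, are 0.04955 to 0.09832 CPM.

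The members and gene lists were chosen with earlier results of these data known. All members are named, and of each further iron list the 2 most abundant genes for the genotype comparisons and the gene with the largest called fold change in each comparison, plus Hamp, which was added for its role. Likeness takes the 3 genes with the highest r. Alternatives were DESeq2 (1.42.0) size factors or Wald test, library size only, no filter, at least 10 counts in every library, the protein-coding table, 12 libraries, other WT CD libraries, a replicate block, only the compared groups, and leaving out each library. Whether the numbers of the replicates pair the samples could not be decided.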

Additional observations from a re-analysis of the deposited data

Results flagged for a closer look

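For 4 genes the difference between HoipA-KO and WT differed between the diets by the interaction term in edgeR, with p-values adjusted over all genes, where 3.91% of all genes did. They were 2 of the 10 members, 1 of 9 genes of haem synthesis and 1 of 12 mitochondrial genes. Of the 14, 13 and 11 tested genes of the other iron lists, 0 passed. Hmox1 had a log2 interaction of -2.84 ± 0.65 (edgeR, adjusted p = 0.0448) and Slc11a1 of -3.66 ± 0.75 (edgeR, adjusted p = 0.0329). For both, the fold change on CD was the larger, at 4.46 against 1.61 for Hmox1 and 5.14 against 1.49 for Slc11a1 on the log2 scale. Both were called over 12 libraries as well. Without the 2 libraries that held epididymal RNA, an alternative chosen after seeing the data, the values were -2.30 (edgeR, adjusted p = 0.209) and -3.11 (edgeR, adjusted p = 0.174).

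Alad had an interaction of 2.07 ± 0.44 (edgeR, adjusted p = 0.0371), with -2.47 on CD and -0.40 on HFD. Slc25a37 had one of -0.92 ± 0.16 (edgeR, adjusted p = 0.0256), with 0.83 on CD and -0.086 on HFD. Over 12 libraries neither passed (edgeR, adjusted p = 0.139 and 0.238), and each was lost in 8 of the 11 fits without 1 library, with adjusted p up to 0.109 for Alad and 0.0954 for Slc25a37 in edgeR. Macrophage markers had a negative interaction as well, called for 6 of 10, and their part in the values of Hmox1 and Slc11a1 was not tested.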

How the results depend on the processing

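Among the values of single genes, beside the fits without 1 library, 913 kept direction and side of the threshold, 71 lost a call, 25 gained one and 21 changed sign. For each change below the cause was not tested, except that fewer samples were used where libraries were left out. The values without WT CD replicate 2 and HoipA-KO HFD replicate 1, which held epididymal RNA, were chosen after seeing the data.

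For HoipA-KO against WT on CD, the members called lower numbered 1 over 12 libraries and 1 with only the groups compared, and 0 when WT CD replicates 1 and 3 served as the controls. Pcbp2 then was at -0.14, and without the epididymal libraries Ncoa4 was at -0.043 and Alas1 at -0.083 on the log2 scale. On HFD, the members called higher numbered 1 over 12 libraries and 1 with WT CD replicates 1 and 3. Trf was the 1 member called lower with at least 10 counts in every library, with the protein-coding table, with only the groups compared, with the DESeq2 Wald test and without the epididymal libraries. With library size only, Ncoa4 was at 0.0023 and Cp at 0.047, and without the epididymal libraries Slc48a1 was at 0.030.

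For HFD against CD in WT, the members called higher numbered 0 with only the groups compared and 0 without the epididymal libraries. Those called lower numbered 0 over 12 libraries, with WT CD replicates 1 and 3, with only the groups compared and without the epididymal libraries. With WT CD replicates 1 and 3, Ncoa4 was at -0.11, Tfrc at 0.028 and Slc11a2 at 0.28, and without the epididymal libraries Fth1 was at -0.068, Ncoa4 at -0.26 and Slc11a2 at 0.21. In HoipA-KO, Cp was at 0.077 with library size only and 0.0024 with at least 10 counts in every library.

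For the interaction, Cp was the 1 member called higher with at least 10 counts in every library and with the DESeq2 Wald test, and those called lower numbered 1 with WT CD replicates 1 and 3 and 0 without the epididymal libraries. Trf was at -0.11 over 12 libraries and -0.017 with WT CD replicates 1 and 3. Slc11a2 was at -0.046, -0.46 and -0.34 over 12 libraries, with WT CD replicates 1 and 3 and without the epididymal libraries, and Ncoa4 at 0.014 in the last. It could not be fitted with only 2 groups.

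With the replicate number as a block, Tfrc was called on CD (1.33, edgeR adjusted p = 0.00492), 1 member was called higher with HFD in WT (Hmox1 at 2.02 was lost, edgeR adjusted p = 0.0578), 0 were called lower in the interaction (Slc11a1 at -3.43 and Hmox1 at -2.80 were lost), and the Slc11a2 interaction was -0.0090. Same-numbered libraries correlated at -0.371 to 0.499 in their deviations from group means (median 0.0475, 6 of 15 pairs over 0.1). Those of HoipA-KO CD with HoipA-KO HFD were at 0.139, 0.499 and 0.277. So few libraries cannot decide whether the numbers pair the samples.

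Without each library in turn, the members called higher numbered 5 to 6 and lower 1 to 2 on CD, 0 to 4 and 0 to 1 on HFD, 0 to 2 and 0 to 2 for the diets in WT, and 0 to 1 and 0 to 3 for the interaction. Of the 18136 to 20144 genes tested, these fits called 2815 to 3652 higher and 2216 to 4071 lower on CD. On HFD they called 38 to 1655 and 237 to 2142, for the diets in WT 750 to 2913 and 155 to 3072, and for the interaction 0 to 1788 and 1 to 1880. Signs changed on CD for Slc11a2 (-0.097 to 0.85), Hp (-1.10 to 0.37) and Alas1 (-0.039 to 1.37), and on HFD for Ncoa4 (-0.27 to 0.080), Cp (-0.18 to 0.083) and Slc48a1 (-0.34 to 0.050). They changed between the diets in WT for Fth1 (-0.036 to 0.62), Ncoa4 (-0.23 to 0.55), Trf (-0.63 to 0.23), Slc11a2 (-0.68 to 0.24) and Slc40a1 (-0.32 to 1.10), and in HoipA-KO for Slc40a1 (-0.63 to 0.17) and Cp (-0.18 to 0.078). In the interaction they changed for Trf (-0.35 to 0.51), Slc11a2 (-0.44 to 0.49) and Slc40a1 (-1.24 to 0.19).

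Over all genes, 774 rose and 1405 fell in HoipA-KO on HFD, against 96 and 407 over 12 libraries, 151 and 521 with WT CD replicates 1 and 3, 2178 and 2232 with DESeq2, 465 and 1110 without a filter and 1711 and 2068 without the epididymal libraries. On CD, 3491 and 3456 became 2537 and 1671 with only the groups compared. For HFD in WT, 1723 and 1008 became 1414 and 1666 with WT CD replicates 1 and 3, 1195 and 307 with the replicate block, 2396 and 2155 with DESeq2, 583 and 273 without the epididymal libraries and 0 and 0 by edgeR with only the groups compared, where 4666 genes had an unadjusted p under 0.05. For the interaction, 61 and 660 became 14 and 488 over 12 libraries, 8 and 318 with WT CD replicates 1 and 3, 14 and 363 with the block, 895 and 1455 with DESeq2 and 0 and 3 without the epididymal libraries. The median of all genes on CD was -0.21 over 12 libraries and -0.055 over 11, and on HFD 0.15 with library size only and 0.058 with TMM. Depth and the spread between pools limit genes of few counts, such as Hamp.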
